A study of Mus musculus with 16 samples.

Results

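The genes described here encode the vacuolar ATPase and other proteins of the lysosome. They are 37 rows of the deposited FPKM table (fragment numbers corrected for gene length and library size), chosen by gene symbol out of 35275 rows. No cut on their values was used, but earlier results of these data were known when they were chosen. V-ATPase subunits were included because they are among the reported targets of miR-1. The V-ATPase makes up 16 of the 37: 8 subunits of the V1 sector, 6 of the V0 sector and 2 accessory proteins. The other 21 are 5 proteases, 6 glycosidases and lipid hydrolases, 6 membrane, cholesterol-handling and channel proteins, 2 secreted or activator proteins and 2 transcription factors.

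The V-ATPase is a rotary proton pump. Its cytosolic V1 sector hydrolyses ATP and turns the membrane-embedded V0 sector, which carries protons into lysosomes, endosomes and secretory vesicles. The low pH it sets is needed by the cathepsins and glycosidases of the lysosome, and the pump is also a docking surface for nutrient sensing by mTORC1. Many of these genes share a promoter element read by the transcription factors TFEB and TFE3. In muscle, lysosomes clear glycogen, membranes and organelles, and inherited loss of the glycosidase GAA causes a glycogen storage myopathy.

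Messenger RNA was sequenced from C2C12, a mouse muscle precursor line whose cells stop dividing and fuse into myotubes after serum is reduced. All groups came from C2C12 cells recorded as PAX7 negative. Control cells, recorded as wild type, were sampled as 2 populations, and cells with a triple knockout (tKO) of miR-206 together with both miR-1a genes, miR-1a-1 and miR-1a-2, as 2 clones, so genotype and clonal origin cannot be told apart beyond those 2 clones. Each of the 4 lines gave 2 cultures in growth medium (GM) with fetal bovine serum, taken while proliferating, and 2 cultures after 3 days in low horse serum (day 3). The resulting groups are control GM, tKO GM, control day 3 and tKO day 3, with 4 libraries each. Values of a group are listed below in a fixed order: line or clone 1 culture 1, line or clone 1 culture 2, line or clone 2 culture 1, line or clone 2 culture 2. The labels do not say how separate the cultures of a line were, so p-values measure the spread between these libraries, which may be partly technical.

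Depth was 22642563 to 56585952 fragments per library, and each of the 37 genes had at least 301 fragments in every library, so none was limited by detection. The mature microRNAs were not measured here, and the extent of the deletions is not given in the sources used here. The transcript that holds the Mir206 hairpin ranged from 0.293 to 3.40 FPKM in control day 3 and from 0.0957 to 0.926 in tKO day 3. In GM it was listed at 0 in all 4 tKO libraries and was at most 0.0233 FPKM in control, so it gives no sure check of the genotype labels. All 7 myotube markers rose at day 3 in both genotypes. Their summed level was 30.4 to 98.0 FPKM over the GM libraries of both genotypes, 888 to 1291 in control day 3 and 392 to 1254 in tKO day 3. The tKO day 3 sum averaged 1162 FPKM in culture 1 of the clones and 419 in culture 2, whereas the control averaged 1049 and 1089. Macrophage and osteoclast markers matter for these genes because such cells are rich in V-ATPase and cathepsins. Of that list, 6 of 7 were found, with a summed level of 10.99 to 11.8 FPKM (control) and 10.2 to 13.1 FPKM (tKO) in GM and of 5.43 to 7.91 FPKM (control) and 6.38 to 14.6 FPKM (tKO) at day 3. Nearly all of it was Cd14. The defining genes Ptprc, Csf1r, Itgam and Acp5 averaged at most 0.226 FPKM in any group, and Ocstamp was at 0. In bulk RNA, fewer cells of a type and less RNA per cell cannot be told apart.

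The mature miR-206-3p is encoded on chromosome 1 (chr1:20679055-20679076, plus strand, GRCm38.p6) and is shown, from RefSeq, because its seed defines the sites searched for. Bases 2 to 8, the seed, are in capitals.
mmu-miR-206-3p: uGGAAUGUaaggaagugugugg
miR-1a-3p belongs to the same seed family. The longest annotated 3′ UTR of each gene (GENCODE mouse release 21, GRCm38) was searched on its own strand for the 8-base site ACATTCCA and its 7-base parts ACATTCC and CATTCCA, a gene with the 8-base site being counted there alone. Of the 37 genes, 0 had the 8-base site, 2 had ACATTCC and 5 had CATTCCA. That makes 7 of 37 (18.9%) with any site, against 19.0% of the 10804 tested genes with a 3′ UTR. Among the V-ATPase genes it was 5 of 16 (31.2%), and among the others 2 of 21 (9.52%). Counts for the 37 were the same when any annotated 3′ UTR was searched. The 22 bases ending at each site are shown for the V-ATPase genes and Tfe3, to which the knockout comparisons return, with the site in capitals.
Atp6v1a (chr16:44087257-44087278, minus strand): ggtcttataaaacaaACATTCC
Atp6v1e1 (chr6:120795361-120795382, minus strand): gtgcatgtgggactcACATTCC
Atp6v1b2 (chr8:69113573-69113594, plus strand): actccccactctgtgCATTCCA
Atp6v0c (chr17:24164348-24164369, minus strand): aagatcacccctcctCATTCCA
Atp6ap2 (chrX:12616105-12616126, plus strand): ttaataatgtaatttCATTCCA
Tfe3 (chrX:7774555-7774576, plus strand): aggacaccgtgcaagCATTCCA
The seventh gene with a site was Gaa. A match is a description of the letters and not evidence of a working site.

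Promoters were searched for the element read by TFEB and TFE3. RefSeq windows (GRCm38.p6) from 250 bases before to 50 after the start site were found for 29 of the 37 genes. The E-box CACGTG, which reads the same on both strands, was in the window of 11 of 29 (37.9%), against 11.98% of 8491 tested genes and 8.09% of all 27025 genes with a window. Its longer palindrome TCACGTGA, the core of the element read by TFEB and TFE3 and a subset of the E-box matches, was in 6 of 29 (20.7%), against 2.37% of tested and 1.12% of all genes. Those 6 were Ctsa, Ctsd, Mcoln1, Atp6v0d1, Atp6v1a and Atp6v0e. Many of these genes are known to share the element, as said above, so a higher share could be foreseen from the choice of genes. The other 5 with an E-box were Atp6v0b, Lamp1, Glb1, Gaa and Ctsl. A stretch of 100 bases before the start site is shown for the 4 genes with a TCACGTGA wholly upstream, with E-boxes and the longer palindrome in capitals.
Ctsd (chr7:142387873-142387972, minus strand): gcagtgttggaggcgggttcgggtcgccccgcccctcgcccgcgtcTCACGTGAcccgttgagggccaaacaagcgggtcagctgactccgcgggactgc
Ctsa (chr2:164833673-164833772, plus strand): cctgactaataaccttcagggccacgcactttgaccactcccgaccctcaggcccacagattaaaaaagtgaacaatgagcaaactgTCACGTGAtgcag
Mcoln1 (chr8:3500419-3500518, plus strand): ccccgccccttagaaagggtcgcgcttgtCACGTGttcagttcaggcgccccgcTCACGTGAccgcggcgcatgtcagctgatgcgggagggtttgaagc
Atp6v1a (chr16:44139338-44139437, minus strand): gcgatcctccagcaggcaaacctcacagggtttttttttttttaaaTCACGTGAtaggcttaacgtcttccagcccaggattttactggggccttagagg
With the first transcribed base as 0, the E-box within the palindrome began at position -98 in Ctsd, -12 in Ctsa, -45 in Mcoln1, -131 in Atp6v1a, -3 in Atp6v0d1 and 3 in Atp6v0e. Ctsa holds a second TCACGTGA past the start site, not shown, whose E-box began at position 5. These matches describe the windows and are not evidence of binding. Whether genes with a match changed more on differentiation than those without was not tested.

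Differentiation raised most of these genes in both genotypes. Differences are on the log2(FPKM + 1) scale and were tested with limma over 11832 genes with a mean of at least 0.5 FPKM, all 37 among them; a gene is called at a Benjamini-Hochberg adjusted p under 0.05. In control cells 24 of the 37 were called, 21 higher and 3 lower at day 3. Of all tested genes 61.5% were called, 23.2% higher and 38.3% lower. In tKO cells 31 of the 37 were called, 27 higher and 4 lower, against 60.9% of all tested genes, 24.9% higher and 36% lower. The median change was 0.49 over the 37 in control cells and 0.56 in tKO cells, beside -0.15 and -0.12 over all tested genes. With median-of-ratios scaling the median of all genes in control cells moved to 0.01 and 50.2% of all calls were higher in place of 37.7%; the 37 then gave 27 higher and 2 lower, 23 of these calls being shared with the first scaling. In tKO cells the same scaling moved the share of higher calls among all genes from 40.9% to 50.7% and gave 29 of the 37 higher and 2 lower. A call in 1 genotype alone does not show that the genotypes differ, which the interaction given further on tests.

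**Figure D1:**
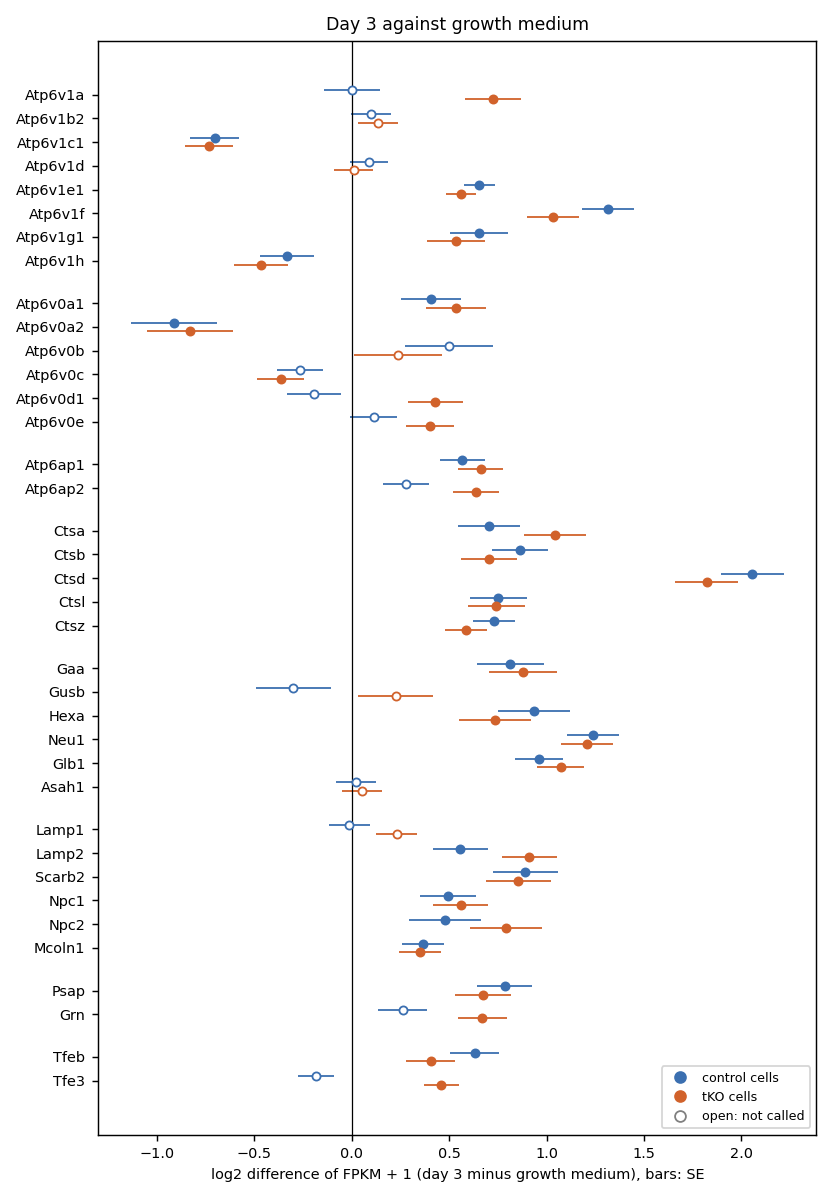
Log2 difference of FPKM + 1 between day 3 and growth medium (x axis) for each of the 37 genes (y axis, grouped by role from V1 subunits at the top to transcription factors at the bottom), in control (blue) and tKO (orange) cells; points are limma estimates, bars are SE, filled points are called. Ctsd stands farthest to the right in both genotypes, and Atp6v0a2, Atp6v1c1 and Atp6v1h lie to the left of 0 in both.

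The lysosomal proteases rose in full: all 5 were called higher in both genotypes. Ctsd (cathepsin D, an aspartic protease that starts the breakdown of proteins in the lysosome; ENSMUSG00000007891, chromosome 7, 142371148 to 142388038) had the largest change of the 37. Its level was 203, 238, 206 and 225 FPKM in control GM and 766, 1127, 836 and 945 in control day 3. In tKO cells it was 145, 219, 236 and 232 in GM and 704, 617, 726 and 869 at day 3. Each day 3 library was thus above each GM library in both genotypes. The rise was 2.06 (SE 0.16, limma adjusted p = 3.34e-08) in control cells and 1.82 (SE 0.16, limma adjusted p = 1.07e-07) in tKO cells. The cysteine proteases Ctsb, Ctsl and Ctsz and the carboxypeptidase Ctsa, which also shields NEU1 and GLB1 from degradation, rose by 0.70 to 0.86 in control cells and by 0.59 to 1.04 in tKO cells. Ctsa, Ctsb and Ctsz overlap other expressed genes on the opposite strand, and their levels are less certain because no source used here says if fragments were counted by strand.

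Among the glycosidases and lipid hydrolases 4 of 6 rose in each genotype, namely Neu1, Glb1, Hexa and Gaa. Neu1 (sialidase, which trims sialic acids; ENSMUSG00000007038, chromosome 17, 34931253 to 34935953) stood at 8.30, 7.25, 9.32 and 7.49 FPKM in control GM and 20.1, 21.6, 22.6 and 17.6 at day 3. In tKO cells it was at 7.09, 8.90, 10.2 and 7.35 in GM and 24.9, 17.4, 21.7 and 18.7 at day 3. No day 3 value overlapped the GM values, and the rise was 1.24 (SE 0.14, limma adjusted p = 1.04e-06) in control and 1.21 (SE 0.14, limma adjusted p = 1.29e-06) in tKO cells.

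Glb1 (beta-galactosidase, whose activity at acid pH also serves as a senescence stain; ENSMUSG00000045594, chromosome 9, 114401076 to 114474376) had 13.4, 13.7, 13.9 and 12.9 FPKM in control GM and 23.8, 32.6, 23.5 and 30.0 at day 3. Its tKO values were 10.6, 11.4, 14.4 and 12.3 in GM and 29.9, 23.3, 25.3 and 27.8 at day 3. The stages did not overlap, with a rise of 0.96 (SE 0.12, limma adjusted p = 5.08e-06) in control and 1.07 (SE 0.12, limma adjusted p = 1.55e-06) in tKO cells; a shorter gene on the same strand, Tmppe, overlaps it. Hexa (the alpha chain of hexosaminidase A, which degrades GM2 ganglioside; ENSMUSG00000025232, chromosome 9, 59539667 to 59565105) had 63.8, 72.3, 70.3 and 63.9 FPKM in control GM and 106, 176, 115 and 132 at day 3. In tKO cells Hexa had 42.6, 79.1, 71.2 and 78.9 in GM and 114, 91.2, 117 and 122 at day 3. Day 3 was above GM throughout, by 0.93 (SE 0.18, limma adjusted p = 0.000363) in control and 0.73 (SE 0.18, limma adjusted p = 0.00261) in tKO cells. Gaa (acid alpha-glucosidase, which frees glucose from glycogen) rose by 0.81 and 0.88. Gusb (beta-glucuronidase) and Asah1 (acid ceramidase) were not called in either genotype, at -0.30 and 0.02 in control and 0.23 and 0.05 in tKO cells.

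Of the membrane, cholesterol and channel proteins 5 of 6 rose in each genotype. Lamp2, a lysosomal membrane glycoprotein needed for fusion with autophagosomes, rose by 0.56 (control) and 0.91 (tKO). Scarb2, the receptor that carries glucocerebrosidase to the lysosome, rose by 0.89 and 0.85. The cholesterol exporters Npc1 and Npc2 rose by 0.49 and 0.48 in control and by 0.56 and 0.79 in tKO cells, and the calcium channel gene Mcoln1 by 0.37 and 0.35. In control cells 9 of 21 other settings did not call Npc2. Lamp1 (the most abundant of the 6 in GM; ENSMUSG00000031447, chromosome 8, 13159135 to 13175338) was the exception. It had 349, 318, 354 and 329 FPKM in control GM and 349.9, 344, 339.6 and 305 at day 3, values that overlap, for a difference of -0.01 (SE 0.11, limma adjusted p = 0.929). Its tKO values were 279, 325, 392 and 348 in GM and 398, 414, 370.3 and 384 at day 3, which overlap in part, for a difference of 0.23 (SE 0.11, limma adjusted p = 0.0688). With median-of-ratios scaling the sign of the control value of Lamp1 turned, to 0.20, which was not called (limma adjusted p = 0.176). In tKO cells 4 of 21 other settings called Lamp1 higher. Median-of-ratios scaling was 1 of them, at 0.40 (limma adjusted p = 0.00957). Psap, the precursor of the saposins that present lipids to hydrolases, rose by 0.79 and 0.67.

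**Figure D2:**
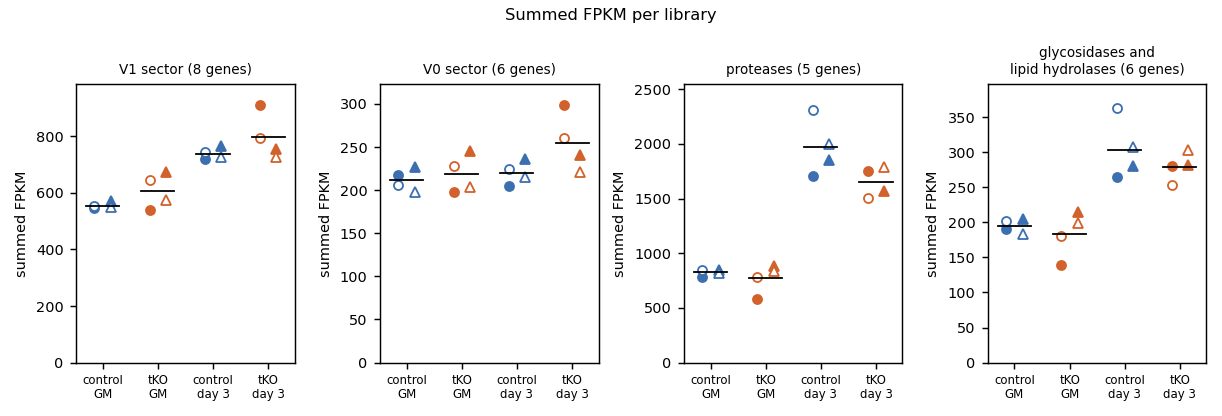
Summed FPKM of 4 groups of genes in each library (y axis, from 0) by group (x axis); circles are line or clone 1, triangles line or clone 2, filled culture 1, open culture 2, black lines the mean of 4 libraries. The protease sum lies at 584 to 883 in GM and 1504 to 2314 at day 3, while the V0 sums of the stages overlap (197 to 245 in GM, 205 to 299 at day 3).

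The V-ATPase did not move as 1 block. In control cells 8 of its 16 genes were called, 5 higher and 3 lower, with a median change of 0.11. In tKO cells 13 were called, 9 higher and 4 lower, with a median of 0.42. Of all tested genes 61.5% were called in control cells, 23.2% higher and 38.3% lower, and 60.9% in tKO cells, 24.9% higher and 36% lower. For the 16 V-ATPase genes median-of-ratios scaling gave 10 higher and 2 lower (Atp6v1c1 and Atp6v0a2) in each genotype. The other 21 genes had 16 called in control cells and 18 in tKO cells, every one of them higher, with medians of 0.703 and 0.705. Summed over the 16 genes, the V-ATPase made 893 to 961 FPKM in control GM and 1139 to 1227 in control day 3. In tKO cells the sum was 872 to 1106 in GM and 1195 to 1440 at day 3.

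In the V1 sector Atp6v1f, Atp6v1e1 and Atp6v1g1 rose in both genotypes while Atp6v1c1 fell in both; Atp6v1h was called lower in both, but not with median-of-ratios scaling. Atp6v1f (subunit F of the central stalk; ENSMUSG00000004285, chromosome 6, 29467718 to 29470512) had 35.6, 45.4, 45.2 and 36.6 FPKM in control GM and 88.9, 119, 97.1 and 105 at day 3. In tKO cells it had 46.5, 51.5, 62.7 and 55.3 in GM and 138, 101, 110.0 and 99.5 at day 3. The stages did not overlap, and the rise was 1.31 (SE 0.13, limma adjusted p = 4.96e-07) in control and 1.04 (SE 0.13, limma adjusted p = 5.75e-06) in tKO cells.

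Atp6v1e1 (subunit E of the peripheral stalks; ENSMUSG00000019210, chromosome 6, 120795245 to 120822685) had 63.3, 63.6, 66.1 and 64.3 FPKM in control GM and 102, 102, 103 and 101 at day 3. Its tKO values were 56.2, 66.2, 66.7 and 62.3 in GM and 95.005, 91.8, 95.6 and 89.9 at day 3. The stages did not overlap, with a rise of 0.66 (SE 0.08, limma adjusted p = 2.62e-06) in control and of 0.56 (SE 0.08, limma adjusted p = 1.22e-05) in tKO cells. Atp6v1g1, subunit G of the same stalks, rose by 0.65 and 0.54.

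Atp6v1c1 (subunit C, which joins the peripheral stalks to the V0 sector and comes off when the pump is disassembled; ENSMUSG00000022295, chromosome 15, 38661904 to 38692443) went the other way. It had 46.8, 43.7, 50.6 and 44.2 FPKM in control GM and 24.6, 28.5, 28.7 and 30.6 at day 3. Cells of the tKO clones had 48.2, 63.4, 50.8 and 46.6 in GM and 25.7, 37.2, 28.0 and 33.7 at day 3. All day 3 values were below all GM values, at -0.70 (SE 0.12, limma adjusted p = 0.000136) in control and -0.73 (SE 0.12, limma adjusted p = 9.43e-05) in tKO cells. Atp6v1h (subunit H, a regulatory subunit of V1; ENSMUSG00000033793, chromosome 1, 5083173 to 5162549) had 47.6, 48.5, 51.9 and 51.0 FPKM in control GM and 44.3, 35.3, 40.7 and 37.5 at day 3. Its tKO values were 45.2, 72.0, 57.2 and 69.1 in GM and 35.3, 46.2, 43.3 and 49.1 at day 3, with some overlap in the tKO cells only. The difference was -0.33 (SE 0.14, limma adjusted p = 0.045) in control and -0.47 (SE 0.14, limma adjusted p = 0.00756) in tKO cells. With median-of-ratios scaling it was -0.13 (limma adjusted p = 0.429) and -0.30 (limma adjusted p = 0.0683), and 11 of 21 other settings did not call it in control cells, 7 of these each leaving out 1 library.

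The genes of the ATP-hydrolysing head were not called in control cells on the FPKM scale. Atp6v1b2 (subunit B of that head; ENSMUSG00000006273, chromosome 8, 69088646 to 69113711) had 52.3, 50.7, 54.9 and 49.9 FPKM in control GM and 54.3, 59.2, 56.0 and 53.4 at day 3. The tKO values were 36.4, 50.4, 47.9 and 48.6 in GM and 49.98, 46.5, 55.2 and 48.8 at day 3. It was not called in either genotype, at 0.10 and 0.14, nor was the stalk subunit gene Atp6v1d at 0.09 and 0.01. With median-of-ratios scaling Atp6v1b2 was called higher in both genotypes, at 0.30 in each (limma adjusted p = 0.0383 in control and 0.04 in tKO), and Atp6v1d in control cells at 0.29 (limma adjusted p = 0.0153). Atp6v1a (subunit A, which holds the catalytic sites; ENSMUSG00000052459, chromosome 16, 44085402 to 44139705) had 65.8, 55.1, 61.8 and 55.5 FPKM in control GM and 63.0, 52.8, 62.2 and 60.4 at day 3, a difference of 0.00 (SE 0.15, limma adjusted p = 0.991). In tKO cells it had 43.7, 39.7, 63.2 and 43.9 in GM and 60.2, 78.8, 87.7 and 89.5 at day 3, a rise of 0.73 (SE 0.15, limma adjusted p = 0.000398). One tKO GM library, clone 2 culture 1, was above the lowest tKO day 3 library.

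In the V0 sector the alternative forms of subunit a changed in opposite directions. Atp6v0a2 (the a2 form, found mainly in endosomes and Golgi; ENSMUSG00000038023, chromosome 5, 124629067 to 124722144) had 27.8, 27.7, 25.8 and 26.6 FPKM in control GM and 16.4, 9.73, 16.0 and 14.3 at day 3. Cells of the tKO clones had 17.8, 19.7, 27.3 and 28.2 in GM and 6.96, 12.8, 15.8 and 16.3 at day 3. The stages did not overlap within either genotype, and the fall was -0.91 (SE 0.22, limma adjusted p = 0.00191) in control and -0.83 (SE 0.22, limma adjusted p = 0.00378) in tKO cells. Atp6v0a1, the a1 form, rose by 0.41 and 0.53.

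Atp6v0c (the main subunit of the proton-carrying ring; ENSMUSG00000024121, chromosome 17, 24163866 to 24169702) had 18.0, 16.6, 19.5 and 20.3 FPKM in control GM and 16.5, 15.9, 13.5 and 15.3 at day 3. The tKO values were 16.3, 22.6, 22.4 and 23.3 in GM and 13.9, 16.5, 16.8 and 17.3 at day 3. Its difference was -0.27 (SE 0.12, limma adjusted p = 0.0627) in control and -0.37 (SE 0.12, limma adjusted p = 0.014) in tKO cells, so it passed the threshold in tKO cells alone; its interaction was not called. Atp6v0b, another ring subunit, was not called, at 0.50 and 0.24. Atp6v0d1 and Atp6v0e were not called in control cells, at -0.19 and 0.11, and rose in tKO cells by 0.43 and 0.40. With median-of-ratios scaling the control sign of Atp6v0d1 turned, Atp6v0b and Atp6v0e were called higher in control cells at 0.70 and 0.31, and the tKO value of Atp6v0c was -0.21 and not called (limma adjusted p = 0.147).

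The accessory proteins bind the V0 sector and help its assembly. Atp6ap1 rose by 0.57 (control) and 0.66 (tKO). Atp6ap2 (also known as the prorenin receptor; ENSMUSG00000031007, chromosome X, 12587801 to 12617049) had 52.8, 45.1, 56.1 and 49.3 FPKM in control GM and 65.0, 62.8, 63.5 and 55.7 at day 3. In tKO cells it had 49.4, 53.0, 65.6 and 48.3 in GM and 78.1, 74.1, 101 and 86.0 at day 3. Its difference was 0.28 (SE 0.12, limma adjusted p = 0.0517) in control, just outside the threshold, and 0.64 (SE 0.12, limma adjusted p = 0.000206) in tKO cells. In control cells 8 of 21 other settings called Atp6ap2 higher. Among them was median-of-ratios scaling, at 0.48 (limma adjusted p = 0.00423).

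**Figure D3:**
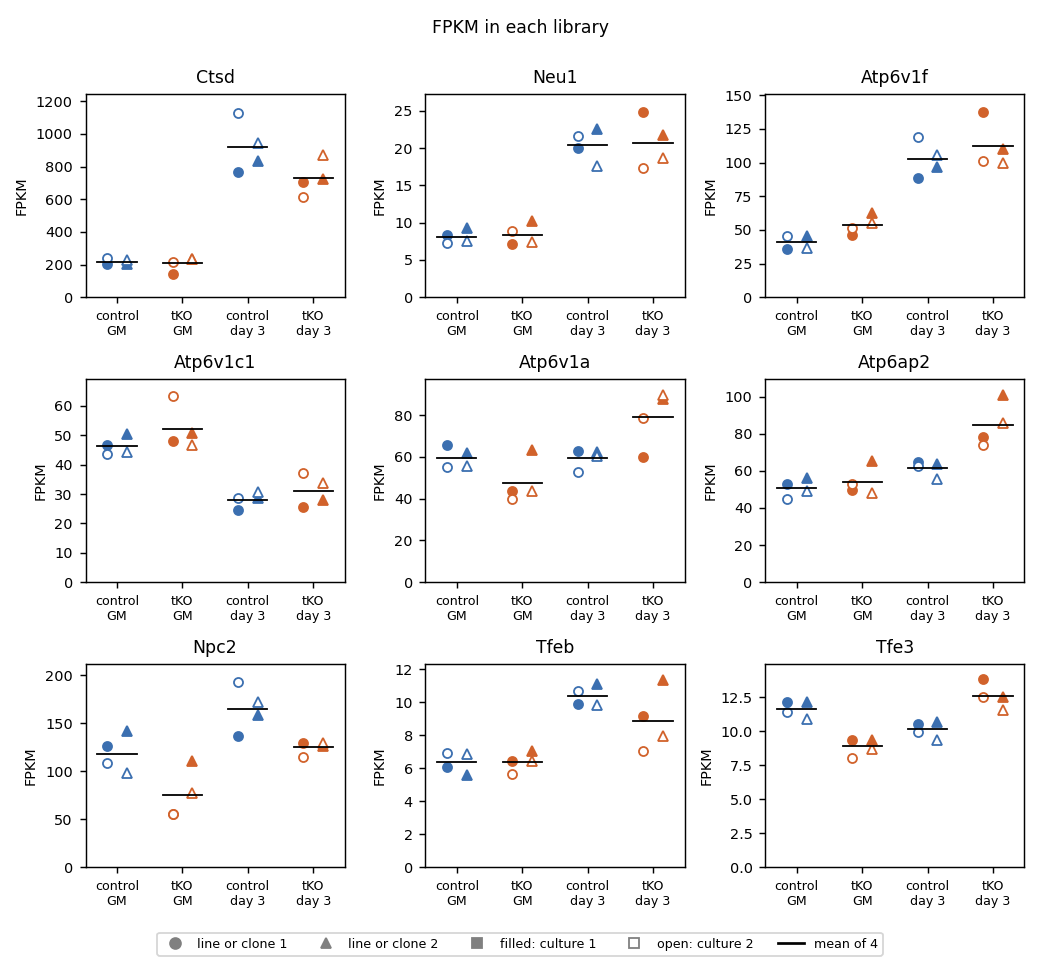
FPKM in each library (y axis, from 0) for 9 of the genes, by group (x axis); circles are line or clone 1, triangles line or clone 2, filled culture 1, open culture 2, black lines the mean of 4 libraries. Ctsd, Neu1 and Atp6v1f are higher and Atp6v1c1 lower at day 3 in both genotypes, and the Tfe3 values of tKO lie below control in growth medium and above it at day 3.

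TFEB and TFE3 are the transcription factors of the lysosomal gene programme. Tfeb (ENSMUSG00000023990, chromosome 17, 47737030 to 47792419) had 6.08, 6.94, 5.57 and 6.85 FPKM in control GM and 9.87, 10.7, 11.1 and 9.83 at day 3. Cells of the tKO clones had 6.41, 5.68, 7.02 and 6.42 in GM and 9.16, 7.05, 11.4 and 7.97 at day 3. Day 3 exceeded GM in every library of each genotype, by 0.63 (SE 0.12, limma adjusted p = 0.000367) in control and 0.41 (SE 0.12, limma adjusted p = 0.00996) in tKO cells. Tfe3 (ENSMUSG00000000134, chromosome X, 7762560 to 7775202) had 12.1, 11.4, 12.2 and 10.9 FPKM in control GM and 10.5, 9.97, 10.7 and 9.36 at day 3. The tKO values were 9.38, 8.07, 9.36 and 8.72 in GM and 13.8, 12.5, 12.5 and 11.6 at day 3. The change was -0.18 (SE 0.09, limma adjusted p = 0.0897) in control cells, which was not called. It was 0.46 (SE 0.09, limma adjusted p = 0.000349) in tKO cells, where all day 3 values were above all GM values. The control value was near 0 with median-of-ratios scaling, at 0.007 (limma adjusted p = 0.96). With scaling to TPM it was called lower, at -0.24 (limma adjusted p = 0.0388).

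The knockout itself was set against control within each stage. In GM 0 of the 37 were called with limma, while 2.06% of all tested genes were, and other settings called 0 to 8 of the 37. An unadjusted p under 0.05 was found for 7 of the 37, beside 2076 of the 11832 tested genes. The groups did not overlap for 2 of the 37, against 14% of all tested genes. At day 3 again 0 of the 37 were called, against 3.38% of all tested genes, with 0 to 2 called in other settings. There 8 of the 37 had an unadjusted p under 0.05, beside 1990 of the 11832 tested genes. Here the groups did not overlap for 6 of the 37, against 8.52% of all tested genes. The median tKO minus control difference of the 37 was -0.06 in GM, with 12 positive and 25 negative, and 0.01 at day 3, with 21 positive and 16 negative. Over all tested genes the medians were -0.01 and 0.01. Without clone 2 the GM count was 8, with Npc2, Npc1, Scarb2, Lamp2, Gaa, Atp6v0d1 and Atp6v1a lower and Atp6v0b higher in clone 1 than in control, and without clone 1 it was 0. The 2.06% of all tested genes belongs to the fit with both clones. It is no measure for these 8, which are therefore not read as particular to the 37.

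**Figure D4:**
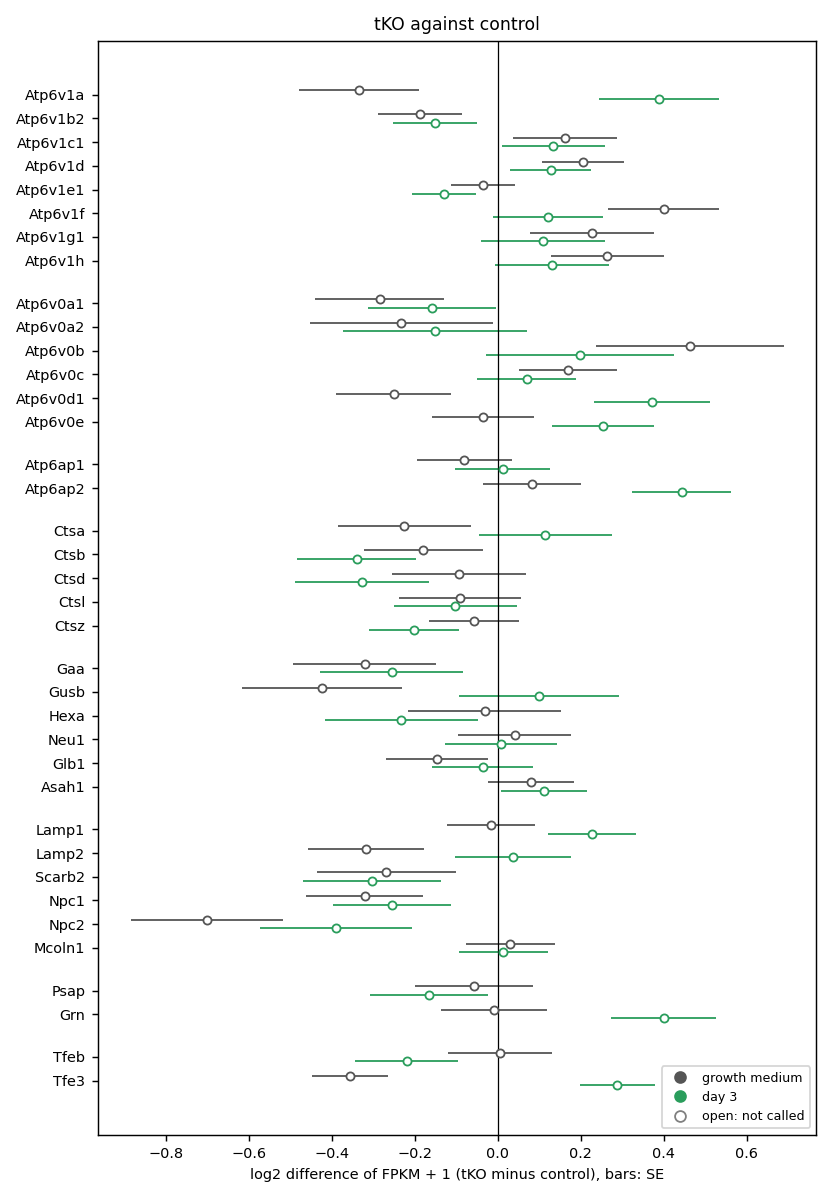
Log2 difference of FPKM + 1 between tKO and control (x axis) for each of the 37 genes (y axis, grouped by role), in growth medium (grey) and at day 3 (green); points are limma estimates and bars are SE. All points are open because none passed the threshold; Npc2 in growth medium lies farthest to the left, at -0.70.

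The genes nearest to the threshold in GM were Tfe3, Npc2, Atp6v1f and Atp6v1a. All 4 tKO values of Tfe3, listed above, were under all 4 control values, at 8.88 ± 0.624 against 11.6 ± 0.619 FPKM (mean ± SD, n = 4 libraries). The difference was -0.36 (SE 0.09, limma adjusted p = 0.0529), with a 95% interval of -0.55 to -0.16. Npc2 (the soluble protein that hands cholesterol to NPC1 in the lysosome; ENSMUSG00000021242, chromosome 12, 84754560 to 84773112) had 126, 108, 142 and 98.2 FPKM in control GM and 55.7, 56.0, 110.4 and 77.2 in tKO GM. The clone 1 values were the lowest, and 1 clone 2 culture lay within the control range. The difference was -0.70 (SE 0.18, limma adjusted p = 0.0593), with an interval of -1.09 to -0.31; in clone 1 against control alone it was -1.06 (limma adjusted p = 0.00186). At day 3 Npc2 had 137, 193, 159 and 172 FPKM in control and 129, 115, 127 and 129 in tKO cells, all lower in tKO, at -0.39 (SE 0.18, limma adjusted p = 0.296).

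Atp6v1f was higher in all 4 tKO GM libraries than in any control GM library, at 0.40 (SE 0.13, limma adjusted p = 0.129) with an interval of 0.12 to 0.68. At day 3 its groups overlapped, at 0.12 (SE 0.13, limma adjusted p = 0.704), with 0.40 between culture 1 libraries and -0.16 between culture 2 libraries. Atp6v1a was lower in GM at -0.34 (SE 0.15, limma adjusted p = 0.244) and higher at day 3 at 0.39 (SE 0.15, limma adjusted p = 0.179), neither of them called. The day 3 difference of Atp6v1a was 0.21 between culture 1 libraries, which overlapped, and 0.56 between culture 2 libraries, where both clones were above both control lines. The culture 2 clones are those with the low myotube marker sum given above, and the part of that sum in the result was not tested.

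At day 3 the nearest to the threshold were Atp6ap2, Tfe3, Grn and Atp6v1a. Atp6ap2 was higher in all 4 tKO libraries than in any control library, at 84.7 ± 11.7 against 61.7 ± 4.11 FPKM (mean ± SD, n = 4 libraries). The difference was 0.44 (SE 0.12, limma adjusted p = 0.0508), with an interval of 0.19 to 0.69. It was 0.46 between culture 1 libraries and 0.43 between culture 2 libraries. Tfe3 was higher in tKO day 3 by 0.29 (SE 0.09, limma adjusted p = 0.101), with an interval of 0.10 to 0.48, and by 0.29 in either culture.

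Grn (progranulin, a secreted growth factor precursor that is cut into granulins in the lysosome; ENSMUSG00000034708, chromosome 11, 102430315 to 102437048) had 100.5, 129, 109.8 and 109 FPKM in control day 3 and 174, 158, 125 and 138 in tKO day 3. In GM it had 88.0, 96.7, 99.2 and 88.0 in control and 80.7, 85.4, 115 and 91.1 in tKO cells. The day 3 groups overlapped only in that clone 2 culture 1 lay below the highest control value, and the difference was 0.40 (SE 0.13, limma adjusted p = 0.105); Grn overlaps Fam171a2 on the opposite strand. It rose on differentiation in tKO cells by 0.67 and was not called in control cells at 0.26. With median-of-ratios scaling Grn was called higher in control cells too, at 0.47 (limma adjusted p = 0.00882). The other genes whose day 3 groups did not overlap were Atp6v0d1 and Lamp1, higher in tKO at 0.37 and 0.23, and Npc2 and Atp6v1e1, lower at -0.39 and -0.13.

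The genes with the largest response to differentiation were not called by genotype in either stage. For Ctsd the tKO minus control difference was -0.09 in GM (-0.44 to 0.25) and -0.33 at day 3 (-0.67 to 0.01). For Neu1 it was 0.04 (-0.25 to 0.33) and 0.01 (-0.28 to 0.29), and for Tfeb 0.01 (-0.26 to 0.27) and -0.22 (-0.48 to 0.04). At day 3 the Ctsd difference was -0.16 within culture 1 and -0.49 within culture 2, with both clones below both control lines in each. The same values were 0.12 and -0.10 for Neu1, and -0.04 and -0.41 for Tfeb. The fallen subunits Atp6v1c1 and Atp6v0a2 stood at 0.16 and -0.23 in GM and at 0.13 and -0.15 at day 3. Over all 37, tKO minus control lay between -0.70 and 0.46 in GM and between -0.39 and 0.44 at day 3.

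Loss of a repressor can raise its targets, so the genes with a seed match were set beside those without. The 7 with a match had a median tKO minus control difference of -0.19 in GM, with 2 positive and 5 negative, beside -0.06 for the 30 without. At day 3 the medians were 0.07, with 4 positive and 3 negative, and 0.01. Among the V-ATPase genes with a match, the day 3 differences were 0.44 for Atp6ap2, 0.39 for Atp6v1a, 0.07 for Atp6v0c, -0.13 for Atp6v1e1 and -0.15 for Atp6v1b2. None was called in either stage, and the sign of Atp6v1e1, Atp6ap2 and Gaa in GM and of Atp6v0c at day 3 turned when single libraries or lines were left out.

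Whether differentiation itself differed by genotype was tested as an interaction. Of the 37, 1 was called, against 0.254% of all tested genes. This was Tfe3, whose change on differentiation was larger in tKO than in control cells by 0.64 (SE 0.13, limma adjusted p = 0.0468), with a 95% interval of 0.37 to 0.92. The estimate was 0.56 to 0.75 in 29 other settings and the limma adjusted p 0.0118 to 1, with 7 of the 29 keeping the call. The next members by unadjusted p were Atp6v1a at 0.72 (SE 0.21, limma adjusted p = 0.182), Atp6v0d1 at 0.62 (SE 0.20, limma adjusted p = 0.247), Grn at 0.41 (SE 0.18, limma adjusted p = 0.421) and Atp6ap2 at 0.36 (SE 0.17, limma adjusted p = 0.453). Without clone 2 the called member was Atp6v0d1 and not Tfe3.

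The lines within a genotype were also set against each other, allowing for stage, to show how far lines of like genotype diverged. The tKO clones differed in 1 of the 37, against 1.05% of all tested genes. This was Scarb2, named after its values were seen, which was higher in clone 2 by 0.57 (SE 0.10, limma adjusted p = 0.0412). The value was 0.53 to 0.66 in 15 other settings, 10 of which did not call it (limma adjusted p up to 0.13), among them 7 of the 8 that left out 1 library. Its tKO values were 21.4, 20.1, 34.0 and 30.9 FPKM in GM and 40.1, 39.4, 60.4 and 54.5 at day 3, beside 32.5, 29.5, 31.3 and 32.7 and 65.4, 55.0, 64.0 and 53.3 in control cells. At both stages clone 1 lay under clone 2 and under each control library. The control populations differed in 0 of the 37 with limma, against 0% of all tested genes called. Of the 37, 0 had an unadjusted p under 0.05 there, beside 104 of the 11832 tested genes. Cultures with the number 2 and 1 at day 3 differed in 0 of the 37, against 0.0169% of all tested genes called. In that comparison 6 of the 37 had an unadjusted p under 0.05, beside 2946 of the 11832 tested genes.

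Other genes of the lysosomal pathway were taken from lists not trimmed by their values, though chosen with earlier results of these data known. Their counts on differentiation are to be read against the shares of all tested genes given above, 23.2% higher and 38.3% lower for control cells, and 24.9% and 36% for the tKO clones. Of 28 tested further lysosomal hydrolases, 20 were called on differentiation of control cells, 15 higher and 5 lower, and 22 in tKO cells, 21 higher and 1 lower. Gm2a, the activator that presents GM2 ganglioside to hexosaminidase A, rose by 1.60 and 1.54. Lipa, the lysosomal acid lipase, rose by 1.32 and 1.64. The median change of that list was 0.48 in control and 0.74 in tKO cells, and median-of-ratios scaling gave 18 rises and 4 falls in control and 22 rises and 1 fall in tKO cells. Further lysosomal membrane proteins were mixed: of 17 tested, 4 rose and 6 fell in control cells and 5 rose and 4 fell in tKO cells, or 6 and 3, and 8 and 3, with median-of-ratios scaling. The amino acid transporter Slc36a1 fell by 1.32 and 0.88, whereas the membrane protein genes Laptm4a and Laptm4b rose by 1.28 and 1.14 in control and by 1.37 and 1.30 in tKO cells.

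Of 16 alternative V-ATPase isoforms and assembly factors, 11 passed the filter, and 5 were called in control cells, of which 3 rose, and 3 in tKO cells, of which 1 rose. That is fewer of them than the 61.5% and 60.9% called among all tested genes, and the control count was 1 to 8 in 21 other settings, with 1 without control line 1, 3 without control line 2 and 5 higher and 1 lower with median-of-ratios scaling. The isoforms Atp6v1b1, Atp6v1c2, Atp6v1e2, Atp6v1g3 and Atp6v0a4, used by kidney and other specialised epithelia or testis, averaged at most 0.329 FPKM in any group. Atp6v0e2 rose by 0.95 and Atp6v0d2 by 0.71 in control cells, and Ccdc115, an assembly factor of the V0 sector, fell by 0.63 in control and 0.94 in tKO cells. Tmem199, its partner in that assembly, fell by 0.70 in tKO cells. Of 15 tested regulators of TFEB and lysosomal mTORC1, 5 were called in control cells, of which 2 rose, and 8 in tKO cells, of which 3 rose; median-of-ratios scaling gave 4 higher and 3 lower in control and 3 of each in tKO cells. Mitf, a relative of Tfeb, rose by 1.34 and 1.33, and Lamtor2, part of the Ragulator complex that docks on the V-ATPase, by 1.09 and 1.05. Flcn, which relays amino acid supply to TFEB and TFE3 through the Rag GTPases, fell by 0.80 and 1.28. In the tKO against control comparisons the only call of that list was Ppp3ca, the catalytic subunit of calcineurin, in GM at -0.75, where it was lower in tKO. The GM count for that list was 0 to 4 in 22 other settings and differed from 1 in 12 of them, with 4 without tKO clone 2.

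Sorting of hydrolases to the lysosome held the largest called difference by genotype in these lists. Igf2r, the cation-independent mannose 6-phosphate receptor, which carries new hydrolases from the Golgi (ENSMUSG00000023830, chromosome 17, 12682406 to 12769664), had 2.24, 1.78, 2.09 and 1.95 FPKM in control GM and 0.319, 0.383, 0.298 and 0.205 in tKO GM. At day 3 it had 3.96, 4.32, 3.19 and 4.52 in control and 0.978, 1.29, 0.256 and 0.51 in tKO cells. No tKO library reached the lowest control library of its stage, and the difference was -1.21 (SE 0.16, limma adjusted p = 0.000353) in GM and -1.54 (SE 0.16, limma adjusted p = 2.11e-05) at day 3. It was the 1 called gene of 11 in each stage. In GM the count was 0 to 1 over 22 other settings and moved in 2 of them, with 0 without control line 1. At day 3 it was 0 to 2 over 22 other settings and moved in 3 of them. Every value of Igf2r lay under 5 FPKM, so the filter of 5 FPKM left it untested. In the same comparisons, among the 5 fibroblast markers, Pdgfra was called lower in tKO in GM and Dcn at day 3, and the summed level of the list was 5.28 to 6.25 FPKM (control) and 1.20 to 5.48 FPKM (tKO) in GM and 29.2 to 38.3 FPKM (control) and 7.04 to 18.6 FPKM (tKO) at day 3, and its part in the result was not tested. Lum, Dpt and Thy1 averaged at most 0.878 FPKM in any group. On differentiation Sort1, the sortilin receptor, rose by 2.18 and 2.39, and Gnptab, which makes the mannose 6-phosphate tag, fell by 1.18 and 0.89.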

How the data were processed

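Messenger RNA levels were analysed in 16 libraries in 4 groups of 4 (control and tKO cells, in growth medium and at day 3), grouped by sample title and matched to table columns by the name in each sample's description. The values are FPKM in a single table that the authors deposited, with 1 column per library and no pooling. The submitters' processing notes name STAR, DESeq and mm10, with no version or role, and the annotation release is not given in the sources used here. The gene names and positions are those of the table; all 37 genes lie at overlapping positions in GENCODE mouse release 21 on GRCm38, 22 with the same start and end. In each library at least 98.71% of values, times gene length, were whole multiples (within 0.01 fragment) of 1 step, from which fragment numbers and depth were worked out. Since the deposited unit is FPKM, tests used log2(FPKM + 1), which understates changes of low genes.

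The 37 genes and the other lists were chosen with earlier results of these data known. limma 3.58.1 in R 4.3.3 fitted group means over all 16 libraries (empirical Bayes with trend and robust, Benjamini-Hochberg over 11832 genes with mean FPKM of at least 0.5). Lines were compared within each genotype with stage as a term, and cultures at day 3 with line as a term. The procedure was tested on simulated data for the GM comparison alone. The simulated libraries were independent, with no line, clone or culture effect, so the bearing of such effects on the p-values was not tested. Given with values in every library are the 4 genes with the smallest p in each genotype comparison, those called in the interaction, the 5 largest called rises and up to 5 called falls in control differentiation, V-ATPase genes with a seed match, Tfeb, Tfe3 and Lamp1; of other lists, the 2 largest called changes per comparison. Alternatives were a pseudocount of 0.1, filters of 0 and 5 FPKM, scaling to TPM or by median of ratios, voom on fragment numbers, culture-number blocks, only the compared libraries, line averages, and leaving out each library or line. Sequences were read from RefSeq and GENCODE with Python 3.11.15, numpy 2.4.6 and pandas 2.3.3, and plots made with matplotlib 3.10.9. The myotube marker Mymk is listed in the table under its older symbol Tmem8c; the macrophage marker Adgre1 was not found by symbol.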

Additional observations from a re-analysis of the deposited data

Results flagged for a closer look

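Atp6v0c had 1 library far from the others of its group: in tKO GM, clone 1 culture 1 was at 16.3245 FPKM while the other 3 lay between 22.4 and 23.3 FPKM. The gap was 0.871 of the whole range, above Dixon's 95% limit for 4 values. Of 72 sets of 4 libraries tested in this way 1 passed, and chance alone passes about 1 in 20.

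Tfe3 changed differently on differentiation in the genotypes: the interaction was 0.644094 on the log2(FPKM + 1) scale (limma adjusted p = 0.0468), and its tKO values lay below every control value in GM and above every control value at day 3. In 22 of 29 other settings the same difference missed the threshold.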

How the results depend on the processing

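On differentiation the number called stayed within 1.5 times in every setting run, at 17 to 30 of the 37 in control cells and 24 to 32 in tKO cells. For tKO against control in GM (0 called), pseudocount 0.1 gave 1, TPM 2, voom 1, leaving out tKO clone 2 gave 8, and leaving out 1 library gave 0 to 3, the 3 being Tfe3, Npc2 and Atp6v1a without tKO GM clone 2 culture 1. At day 3 (0 called) leaving out tKO clone 1 gave 2 (Atp6ap2, Atp6v1a), leaving out clone 2 gave 2 (Grn, Scarb2), and leaving out 1 library gave 0 to 2, with 2 without tKO day 3 clone 1 culture 1. The interaction (1 called) gave 0 with pseudocount 0.1, no filter, median-of-ratios scaling, line averages, and without control line 1, control line 2 or tKO clone 1, and 0 to 2 without 1 library. The clone comparison (1 called) gave 0 with no filter, a filter of 5 FPKM and median-of-ratios scaling, and 0 to 2 without 1 library. The cause of these moves was not tested. The shares of all tested genes given above belong to the main fit and are no measure for the counts in other settings. For single genes and settings, 1129 of 1238 values kept direction and side of the threshold, 62 lost a call, 41 gained one and 6 changed sign. In GM Atp6v1e1 turned to 0.01563 without tKO clone 1 culture 1 (range without 1 library -0.06536 to 0.01563) and to 0.002919 without tKO clone 1, Atp6ap2 to -0.01221 without tKO clone 2 culture 1 (range -0.01221 to 0.1321), and Gaa to 0.04137 without tKO clone 1. At day 3 Atp6v0c turned to -0.01387 without control line 2 and -0.01286 without tKO clone 2. All 6 are near 0. The interaction has no separate fit to the compared libraries, since it uses all 16.

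A replicate block for culture number gave different counts: 1 of the 37 (Tfe3) was called in GM and 2 (Tfe3, Atp6ap2) at day 3. Blocked within each stage, the count was 2 in GM (Tfe3, Npc2) and 2 at day 3 (Tfe3, Atp6ap2). The shares of all tested genes given above belong to the fit without a block. They are no measure for the blocked counts, which are therefore not read as particular to the 37. The block left the other counts within 1.5 times. The labels give no pairing, so the numbers were not taken to pair the samples in the main fit. Across genes the deviations of same-numbered control and tKO libraries correlated at 0.0955 to 0.452 in GM and -0.224 to 0.558 at day 3. The means were 0.25 and 0.187. The culture 2 minus culture 1 difference correlated between control and tKO at 0.543 in GM and 0.343 at day 3. Whether same-numbered cultures were handled together was not tested. Leaving out a line leaves 1 line, with 2 cultures, in that genotype.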

Other observations

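Autophagy genes, which deliver cargo to the lysosome, were also set against differentiation. Of 16 tested, 9 rose and 2 fell in control cells and 8 rose and 2 fell in tKO cells. Of all tested genes 23.2% were called higher and 38.3% lower in control cells, and 24.9% and 36% in tKO cells. The list had median log2 changes of 0.25 and 0.32 beside -0.15 and -0.12 over all tested genes. Map1lc3a, an LC3 protein that is joined to autophagosome membranes, rose by 1.81 (control) and 1.98 (tKO). Gabarapl1, of the same protein family, rose by 0.95 and 1.05, and Ulk1, the kinase that starts autophagy, by 0.83 and 1.09. Vps18, part of the complex that tethers vesicles to lysosomes, fell by 0.38 and 0.36, and Atg5 by 0.33 and 0.29. With median-of-ratios scaling 11 were called higher in control and 10 in tKO cells, and 0 lower with limma in either. In control cells the number called was 3 to 11 over the alternatives. None of the 16 was called between tKO and control with limma at either stage. An unadjusted p under 0.05 was found for 3 in GM and 1 at day 3, beside 2076 and 1990 of the 11832 tested genes.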
